A study of Mus musculus with 2 samples.

Results

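Block 6 of the anti-Rbfox1 reads held 2807 crosslinked reads in 305 clusters, out of 64820 reads and 10137 clusters in that library. The blocks are a property of the deposited list of reads. Its lines run through the chromosomes in alphabetical order and then start again, which divides them into 11 blocks, and the sources used here do not give the meaning of a block. Block 6 was taken by its place in the file and because no control block overlapped it. Its reads were joined into a cluster where neighbouring crosslink positions on a strand lay within 20 nt. Block 6 made up 4.33% of the reads (95% interval 4.18 to 4.49) and 3.01% of the clusters (2.68 to 3.36). Intervals are exact (Clopper-Pearson). They take account of counting error alone, since amplified reads can be copies of 1 molecule.

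Both libraries came from mouse forebrain neurons grown for 14 days in culture, irradiated with ultraviolet light and split to obtain the cytoplasm. One was precipitated with anti-Rbfox1 antibodies, and the control of 569 reads with anti-Flag antibodies. The labels name no genotype, strain, transgene or added agent, and no source of the Flag epitope. There was 1 library per antibody, so no value below has a replicate check. The tests compare clusters within the anti-Rbfox1 library and say nothing about replicate experiments.

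The RNA-binding protein Rbfox1 of neurons recognises a short element with the core GCAUG. In the nucleus it is known as a regulator of alternative splicing. A splice form without the nuclear signal is found in the cytoplasm, where Rbfox1 is known to bind the 3′ untranslated regions of messenger RNAs and to affect their stability and translation. In iCLIP, reverse transcription tends to stop at the base joined to the protein, so the base upstream of a read marks a contact. A cluster of such positions marks a short piece of RNA held by the protein. A row of clusters on the same strand marks several such pieces with gaps that may lie between them. Whether the clusters of a row lie on the same RNA was not tested. The genes and sequences under the clusters were not analysed here, because that needs the mm9 genome and gene models. All positions below are mm9 coordinates.

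The reads of block 6 were concentrated on a few places. The 10 highest clusters held 849 reads, 30.2% of the block (28.6 to 32.0), and 31 clusters were enough to hold 50% of its reads. By depth, 84 clusters held 2 reads, 156 held 3 to 9, 58 held 10 to 49 and 7 held 50 or more. The 65 clusters of 10 reads or more held 66.3% of the reads. Just around the joining distance, 4 gaps between neighbouring positions measured 16 to 20 nt and 6 measured 21 to 25 nt, against 1663 gaps that lay within clusters. A larger change of this distance mattered more: joining within 10 nt gave 394 clusters and joining within 50 nt gave 280.

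Chromosome 7 carried the highest cluster. On its plus strand, from 107421150 to 107421416, 226 reads began at 114 crosslink positions, 8.05% of the block (95% interval 7.07 to 9.12). No position stood out in it: the most used one held 6 reads, a number that 3 positions reached, and 56 positions held a single read. The read ends were as varied, with 101 different 3′ ends. This was the widest cluster of the block, at 267 nt, where the median cluster was 48 nt wide.

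Its neighbours on the same strand were also deep. From 107421005 to 107421117 lay 45 reads at 27 positions, and from 107421577 to 107421777 lay 57 reads at 43 positions. Together the 3 clusters formed a stretch, meaning a row of clusters with gaps of at most 1000 nt. It held 328 reads over 773 nt, of which clusters covered 75.2%. Further along the strand, 3 touching clusters with 29, 20 and 22 reads covered 107422780 to 107423021 without a gap. A cluster of 11 reads began at 107424913, and 3 more clusters with 8, 39 and 31 reads covered 107427123 to 107427361. With outer bases joined over 10000 nt, a distance chosen after the data were seen, these 10 clusters made 1 neighbourhood of 6357 nt with 488 reads, 17.4% of the block. In it, 9 of the 10 clusters held 10 reads or more.

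On the minus strand of chromosome 12, reads were most stacked in 1 cluster. That cluster, from 11333020 to 11333096, held 72 reads at only 18 positions, or 4 reads per position, the highest ratio in the block. The position 11333077 held 12 reads and 11333064 held 10, and these were the only positions of the block with 10 reads or more. Those 12 reads had 12 different 3′ ends, which was fixed in advance, since no reads of the block shared start, end and strand. The median read length in this cluster was 36 nt, against 28 nt over the block. The next cluster downstream, from 11332858 to 11332965, was the second highest of the block with 136 reads at 50 positions. Further downstream lay 59 reads from 11332702 to 11332789 and 40 reads from 11332499 to 11332572. Reads per position fell downstream, to 2.72, 1.90 and 1.82, against 1.98 in the highest cluster on chromosome 7. The 4 clusters on chromosome 12 formed a stretch of 598 nt with 307 reads, 10.9% of the block (9.81 to 12.2). Of the 9 positions with most reads in the block, 8 lay in this stretch and 1 on chromosome 11.

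**Figure D1:**
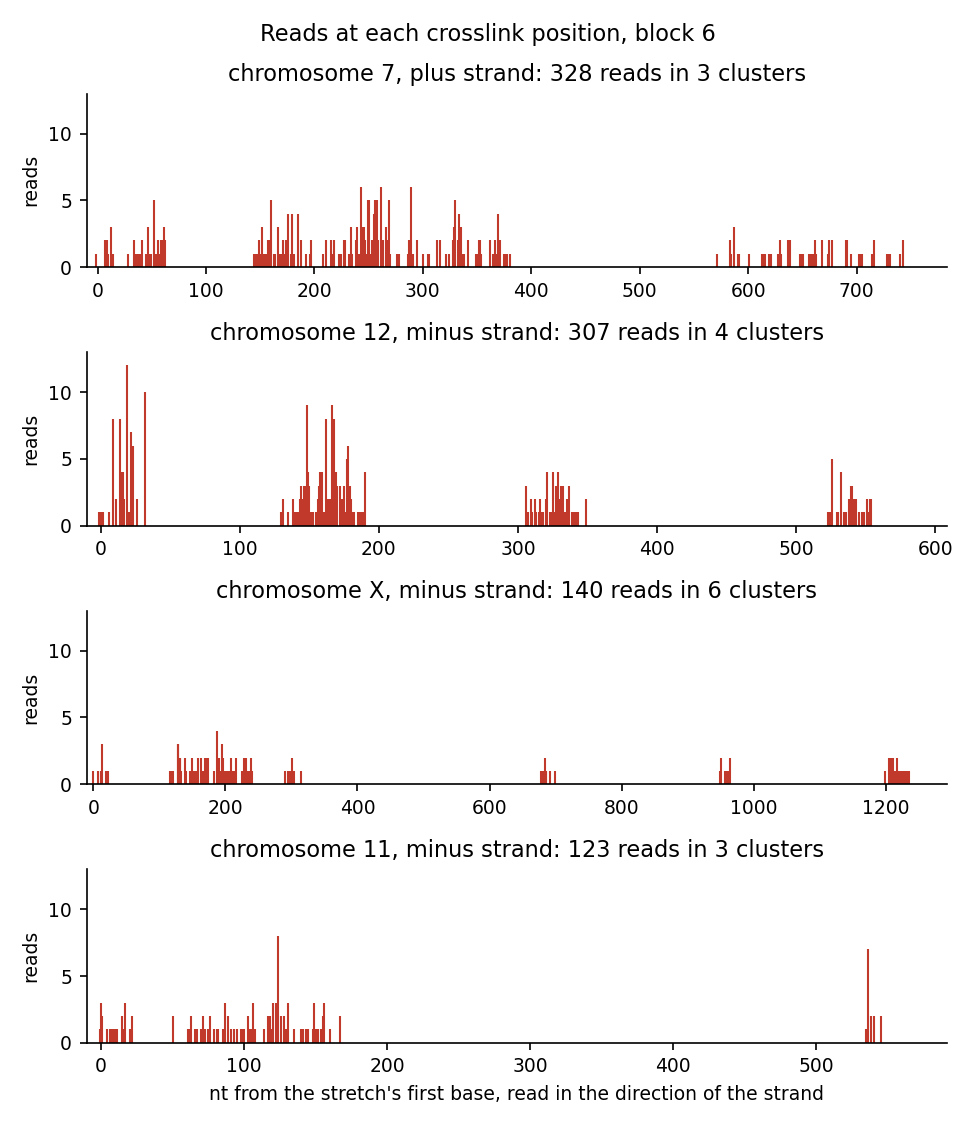
Reads at each crosslink position (vertical axis, reads; horizontal axis, nt from the first base of the stretch along its strand) in the 4 block 6 stretches with most reads. Reads were spread over many positions on chromosome 7, where the most used position held 6. On chromosome 12 they were most stacked in the cluster furthest upstream, where 1 position held 12.

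Chromosome X carried 15 clusters, of which only 2 lay on the plus strand. On the minus strand, 6 clusters from 67597912 to 67599193 held 140 reads, 4.99% of the block. The deepest ran from 67598913 to 67599076, with 76 reads at 51 positions, and the others held 8 to 28 reads. A further 4 clusters, with 2 to 20 reads each, lay within 10000 nt downstream, starting at 67596352. All 10 together held 175 reads.

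Chromosome 11 had its deepest signal on the minus strand. There 88 reads fell between 74490945 and 74491083, with 8 reads at position 74491010. The adjoining cluster from 74491084 to 74491134 held 21 reads. The third cluster of this stretch, from 74490554 to 74490598, held 14 reads at 5 positions, and 7 of those reads shared the position 74490598. A further 4 clusters from 74487468 to 74488343 held 54 reads, and the deepest of them, with 32 reads, ended at 74487568. The 7 clusters of this neighbourhood held 177 reads, 6.31% of the block.

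Chromosome 18 completed the 10 highest clusters, with a pair on its plus strand. The cluster from 24049764 to 24049905 held 43 reads at 32 positions, where 11 positions tied at 2 reads each. The cluster from 24052259 to 24052354 held 47 reads at 32 positions. It was the deepest one with no other cluster of the block within its stretch. The neighbourhoods on chromosomes 7, 12, 11, X and 18 were the 5 highest, and held 44.7% of the block's reads between them.

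The stretches with most clusters were not those with most reads. On chromosome 2, 7 plus-strand clusters between 135300206 and 135300981 held 5 to 22 reads each and 87 in all. On chromosome 9, 7 plus-strand clusters between 74904638 and 74905821 held only 33 reads, and none of them more than 9. Among the 3 stretches of 6 clusters, that on chromosome 5 (plus strand, 43677685 to 43678277) held 87 reads, and 5 of its clusters held 10 reads or more. The others were the chromosome X stretch above and one on chromosome 11 (plus strand, 80293326 to 80294664) with 71 reads. In the last, 40 reads lay in the cluster from 80294090 to 80294157. The deepest cluster held 24.1% of the reads on chromosome 5 and 71.5% in the chromosome 11 minus-strand stretch.

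The whole block fell into 180 stretches. At least 2 clusters lay in 59 of them and at least 5 in 8 of them. These 59 held 184 clusters and 2256 reads, 80.4% of the block. The midpoints of neighbouring clusters in a stretch lay 165.5 nt apart at the median, with an interquartile range of 91 to 390 nt. Clusters in the 59 stretches held a median of 6 reads, and 57 of 184 reached 10. The 121 clusters alone in their stretch held a median of 3 reads, and 8 of them reached 10. Examples of deep clusters that stood alone were the 47 reads on chromosome 18 and 36 reads on chromosome 17 (plus strand, 25956665 to 25956750). The share with another cluster of the block within 1000 nt (between midpoints, same strand) was 39.3% of the clusters of 2 reads (28.8 to 50.5) and 86.2% of those of 10 to 49 reads (74.6 to 93.9). All 7 clusters of 50 reads or more had one.

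At single positions the signal was mostly 1 read deep. Of 1968 crosslink positions, 1439 held 1 read, 529 held 2 or more and 32 held 5 or more. The reads were 15 to 63 nt long with an interquartile range of 23 to 35 nt, and 10.1% were shorter than 20 nt. Median read length was 29 nt in clusters of 2 reads and 28 nt in those of 50 or more. Median cluster width was 37 nt at 2 reads and 68.5 nt at 10 to 49 reads. No reads of the block shared start, end and strand. Each such fragment is therefore listed once, and the reads at a position need not count all molecules there.

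The depth of block 6 was compared with that of the larger blocks 1, 3, 4 and 9 and of all other blocks together. All clusters of blocks 1, 3, 6 and 9 and 99.98% of those of block 4 held at least 2 reads. Clusters of 2 reads are thus the shallowest class in these blocks, apart from the remainder of block 4. Clusters of 2 reads made up 27.5% of block 6 (22.6 to 32.9) and 49.6% of the other blocks (48.6 to 50.6), a difference of -22.02 percentage points (-26.8 to -16.7). Fisher's exact test (two-sided, adjusted by Benjamini-Hochberg over a family of 20) gave an adjusted p = 3.29e-14. With clusters joined within 10 nt, this difference was -13.5 points (-17.4 to -9.04) and still passed (Fisher's exact test, adjusted p = 2.67e-08). Clusters of 10 reads or more made up 21.3% (16.9 to 26.3) and 12.02% (11.4 to 12.7), with an adjusted p = 1.25e-05 by Fisher's exact test. Clusters of a stretch may share an RNA, so these p-values treat as independent what may not be.

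Against single blocks, block 6 was far deeper than 3 of them. Clusters of 10 reads or more were 1.82% of block 1, 0.750% of block 3 and 1.51% of block 9, and clusters of 2 reads were 77.1%, 76.3% and 60.2%. All 6 of these differences passed the adjusted Fisher's exact test, the largest adjusted p being 3.65e-21. Block 4, the deep block with 74.2% of the library's reads, was close to block 6. It had 25.6% of clusters at 2 reads, so that block 6 lay 1.95 points above it (-2.92 to 7.35; Fisher's exact test, adjusted p = 0.509). It had 22.0% at 10 reads or more, so that block 6 lay 0.73 points below (block 6 minus block 4 was -0.73, with an interval of -5.11 to 4.34; Fisher's exact test, adjusted p = 0.875). These intervals allow differences of several points either way.

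Blocks differed in how many reads shared an end, which bears on depth. Reads beyond the first at a leftmost base numbered 0 in blocks 1 and 3, 899 in block 6 and 16313 in block 4. At a rightmost base they numbered 2386 in block 1, 268 in block 3, 914 in block 6 and 16484 in block 4. Bases were taken per strand, and the counts pooled both strands. The rightmost base is where a minus-strand read starts but where a plus-strand read ends. Next, 1 read was kept per leftmost base in every block, and clusters left with 1 crosslink position were dropped. Of the 294 block 6 clusters that remained, 14.6% held 10 reads or more (10.8 to 19.2). The share was 1.82% in block 1, 0.750% in block 3, 0.824% in block 9 and 15.4% in block 4. With 1 read kept per leftmost and per rightmost base and the same clusters dropped, 282 clusters remained in block 6 and 2440 in block 1. Block 3 then had 273, block 9 had 536 and block 4 had 4688. The share of 10 reads or more was 12.8% in block 6, 1.89% in block 1, 0.733% in block 3, 0.187% in block 9 and 10.8% in block 4. The calls on depth against each block stayed on their side of the threshold under both.

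**Figure D2:**
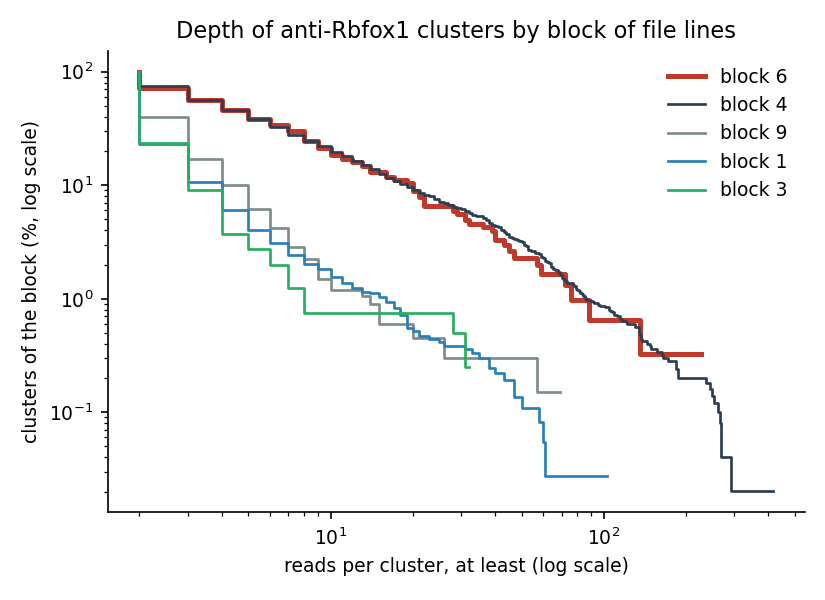
Share of clusters of a block (vertical axis, %, log scale) that held at least the number of reads on the horizontal axis (log scale). The line of block 6 runs beside that of block 4 up to its deepest cluster of 226 reads, and both lie above blocks 1, 3 and 9.

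The share of clusters with close neighbours was also near that of block 4. A cluster of the same block lay within 1000 nt on the same strand for 183 of 305 clusters. That is 60% (54.3 to 65.5). The value was 60.1% in block 4, a difference of -0.12 points (-5.87 to 5.40; Fisher's exact test, adjusted p = 1). In the other blocks together it was 38.2% (adjusted p = 7.18e-14), with 17.3% in block 1, 17.0% in block 3 and 6.94% in block 9, all below block 6 (largest adjusted p = 4.49e-32, Fisher's exact tests). Blocks differ in their number of clusters, and a block with more clusters has more chances of neighbours. Block 6 was the smallest of the 5.

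The plus strand held 181 of the 305 clusters, 59.3% (53.6 to 64.9), and 58.2% of the reads (56.4 to 60.04). Counted over neighbourhoods, which join clusters that may share an RNA, it held 85 of 147, 57.8%, with an interval of 49.4 to 65.9 that includes an even split. In block 4 it held 49.7% of clusters, so block 6 lay 9.65 points higher (3.88 to 15.2; Fisher's exact test, adjusted p = 0.00165). Counted over stretches, the excess over block 4 was 7.39 points (-0.14 to 14.6), and the adjusted p of 0.0921 no longer passed (Fisher's exact test). Against block 9 the excess was 7.46 points (adjusted p = 0.0394), and without the chromosome 7 neighbourhood it was 6.08 points (adjusted p = 0.115, Fisher's exact tests). With 1 read per leftmost base the call against block 9 was also lost (4.89 points, adjusted p = 0.214), as was that against block 1 (-4.19 points, adjusted p = 0.214, Fisher's exact tests). The plus shares of block 1 (65.7%; adjusted p = 0.0377) and block 3 (74.5%; adjusted p = 3.43e-05) were above that of block 6 (Fisher's exact tests). Those differences turned or ended when reads were collapsed on both ends. The plus share was then 59.9% in block 6, 48.98% in block 1 and 62.6% in block 3. Plus-strand clusters went from 2390 of 3635 to 1195 of 2440 in block 1. In block 3 they went from 298 of 400 to 171 of 273. Shares before and after a collapse are thus over different clusters. Against all other blocks the difference was 2.62 points (-3.06 to 8.07; adjusted p = 0.446, Fisher's exact test). It passed in 3 other countings: 13.01 points in clusters of at least 5 reads (adjusted p = 0.0154), 4.83 over reads (adjusted p = 4.84e-07) and 9.87 after collapse on both ends (adjusted p = 0.00172, Fisher's exact tests). The test over reads takes reads of 1 place as independent, so its p-value is not comparable with the others. Over stretches the difference was -1.51 points (adjusted p = 0.701, Fisher's exact test). The p-values over reads and over stretches were adjusted within the strand tests alone.

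**Figure D3:**
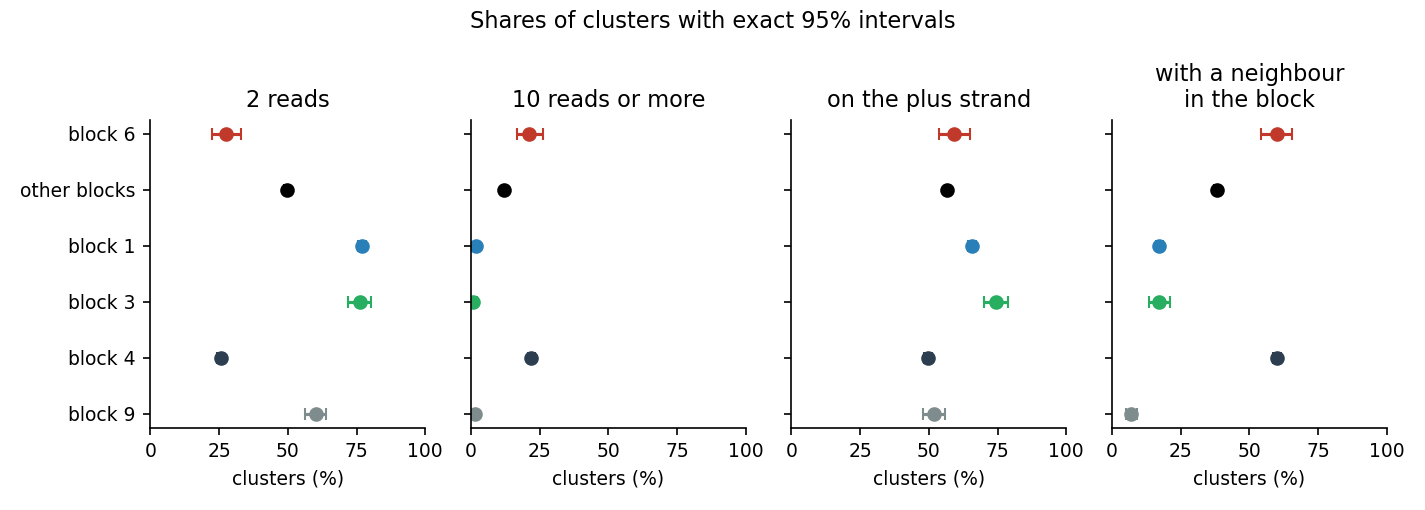
Shares of clusters (horizontal axes, %; points with exact 95% intervals) of 2 reads, of 10 reads or more, on the plus strand, and with a same-strand neighbour of their block within 1000 nt. Block 6 lies beside block 4 in depth (21.3% and 22.0% at 10 reads or more) and neighbours (60% and 60.1%), and above it on the plus strand (59.3% and 49.7%).

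Single places held most of the reads on the more used strand of several chromosomes. On chromosome 7, 611 reads lay on the plus strand and 34 on the minus strand, and 488 of the former were those of the neighbourhood described above. Chromosome 12 had 8 plus and 327 minus reads, of which 307 belonged to its single deep stretch. Chromosome X had 8 and 184, and 175 of the latter lay in its neighbourhood. Of the 7 clusters with 50 reads or more, 2 lay on the plus strand, 28.6% with an interval of 3.67 to 70.96 that includes the block's share. These 7 came from only 4 stretches.

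All 19 autosomes and chromosome X carried clusters of block 6. Chromosome 7 held 23.0% of the reads in 37 clusters (12.1% of clusters, 8.69 to 16.3), while 5.24% of the clusters of the other blocks lay there. Chromosome 11 held 13.6% of the reads in 39 clusters (12.8%, 9.25 to 17.1), against 7.57% of the clusters elsewhere. Chromosome 12 held 11.9% of the reads in only 11 clusters. At the other end, chromosome 14 held 12 reads in 4 clusters and chromosome 15 held 28 reads in 5. These shares were not tested, and they move with a few neighbourhoods.

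**Figure D4:**
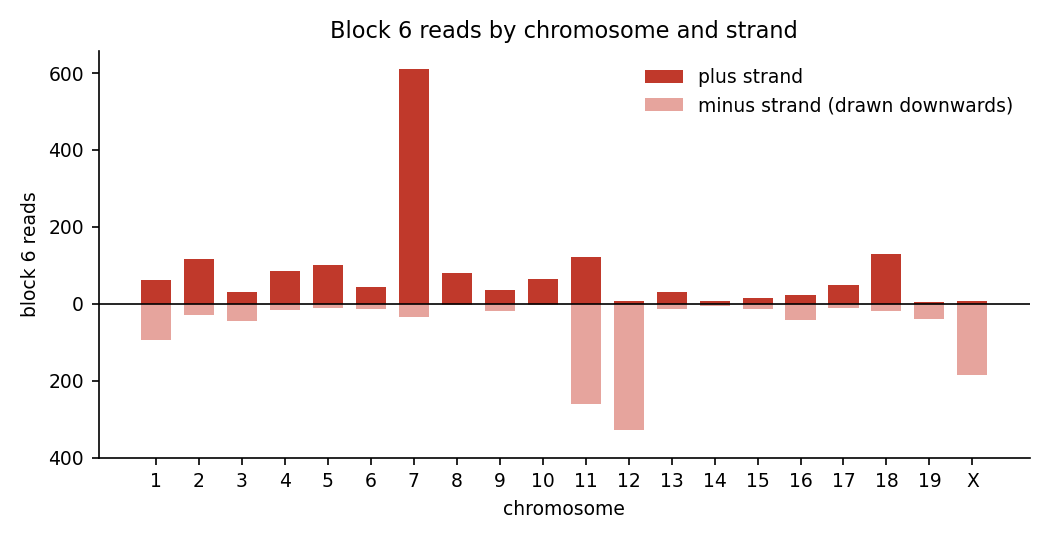
Block 6 reads on each chromosome (horizontal axis), plus strand upwards and minus strand downwards (vertical axis, reads). The plus strand of chromosome 7 stands highest with 611 reads, and chromosomes 11, 12 and X had more minus than plus reads.

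Clusters of other blocks near those of block 6 came from few blocks. A cluster of another block lay within 1000 nt on the same strand for 19 of 305 clusters (6.23%, 3.79 to 9.56), and for all 19 it was one of block 11, a block of only 46 clusters. Seen from block 11, 10 of its 46 clusters lay that close to block 6. None of the 4982 clusters of block 4, the 3635 of block 1 or the 663 of block 9 did so. Within 10000 nt, 59 clusters of block 6 had a neighbour from block 11, 24 had one from block 3, and 0 had one from any other block. A count of 0 of 305 clusters allows a share of up to 0.984%. Only within 100 kb did block 4 appear, beside 41 clusters, and block 1, beside 25.

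The neighbours lay on 1 side. Of the block 11 clusters, 23 came within 10000 nt of block 6, and all 23 lay upstream of the nearest block 6 cluster on the strand, at a median distance of 1092 nt between midpoints. All 17 clusters of block 3 within that distance also lay upstream, at a median of 5542 nt. As exact intervals, 23 of 23 allows a share upstream from 85.2% and 17 of 17 one from 80.5%, though clusters beside the same block 6 cluster are not independent. Blocks 9 and 1 stood to block 4 in a like order, with 282 of 285 clusters of block 9 and 237 of 249 of block 1 upstream of the nearest block 4 cluster within 10000 nt. Whether the share differs between these pairs was not tested.

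Several of these pairs lay beside the deep clusters already described. On chromosome 12, a block 11 cluster of 2 reads from 11333081 to 11333126 overlapped the upstream end of the block 6 cluster of 72 reads. On chromosome 11, 8 minus-strand block 11 reads from 74491155 to 74491195 lay just upstream of the block 6 cluster of 21 reads, and 14 more, from 74492962 to 74493010, lay further upstream. The 14 were the deepest block 11 cluster. On chromosome X, 4 reads of block 11 began at 67599642, and on chromosome 7, 7 reads from 107416757 to 107416818 preceded the large neighbourhood by 4274 nt between midpoints. Others lay beside shallow clusters, at like or shorter distances. On the minus strand of chromosome 5, 7 reads of block 11 from 125866395 to 125866447 lay 59.5 nt upstream (between midpoints) of a block 6 cluster of 4 reads. On the plus strand of chromosome 3, 8 reads from 146642692 to 146642755 lay 104.5 nt upstream of one of 5 reads. An example near block 3 was shallow on both sides: on the plus strand of chromosome 10, 3 block 3 clusters of 2 to 4 reads, from 90430845 to 90431962, preceded a block 6 cluster of 3 reads at 90433071. All 3 blocks followed each other at 2 places, both on a plus strand. On chromosome 10, 2 reads of block 3 began at 39278345, 2 reads of block 11 at 39283701 and 10 reads of block 6 at 39283886. On chromosome 7, 2 reads of block 3 began at 51611855, 2 reads of block 11 at 51612526 and 5 reads of block 6 at 51613069, followed by the block 6 cluster of 31 reads from 51613189 to 51613264. Only 3 clusters of block 6 had a cluster of any block within 1000 nt on the opposite strand.

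**Figure D5:**
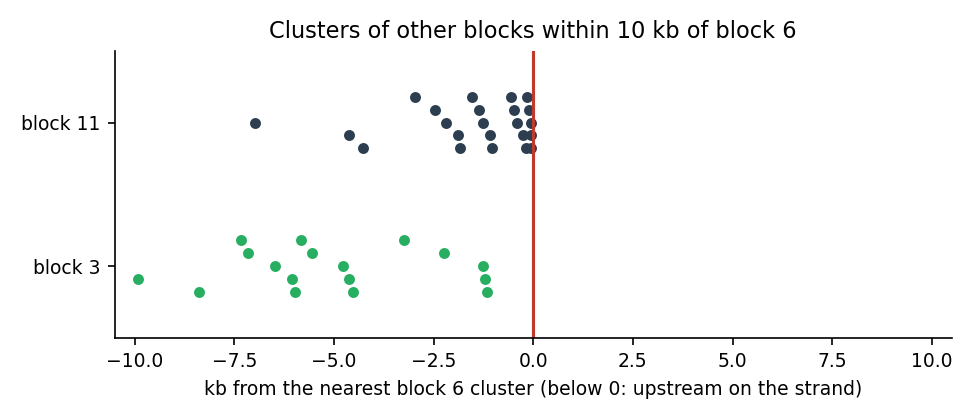
Distance in kb (horizontal axis, below 0 for upstream) from the nearest block 6 cluster to each cluster of blocks 11 and 3 (rows) that lay within 10000 nt on the same strand. The vertical line is the block 6 cluster, and all 23 points of block 11 and all 17 of block 3 lie upstream of it. Heights within a row only separate the points.

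In the control, 0 of 569 reads overlapped a cluster of block 6 or lay within 50 nt of one on the same strand, which allows a share of up to 0.527%. This block was described partly because it lacked such overlap, so the value is a description. The nearest control reads formed a pair on chromosome 18 (minus strand, 25636868 to 25636895). They lay 132 nt upstream of a block 6 cluster of 5 reads (25636708 to 25636736) and within 1000 nt of clusters of 6 reads (25636568 to 25636645) and 7 reads (25637694 to 25637736). These 3 were the only clusters of the block within 1000 nt of a control read, and all were shallow. In the control's own file the pair belonged to the fifth of its 7 blocks, which held 4 reads in all. Another pair of control reads, on chromosome 16 (plus strand, 7406170 to 7406192), lay 5453 nt upstream of a block 6 cluster of 8 reads that began at 7411645. That pair came from the control's second block. No other control read lay within 100 kb of a cluster of the block on its strand. Only 5 of the 305 clusters had a control read within that distance, and none of the 5 held 10 reads or more. With so few control reads, this says little about the deeper clusters. How many control reads overlapped or lay near all anti-Rbfox1 clusters was not counted here. Whether block 6 differs from the library in this was therefore not tested.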

How the data were processed

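The files used hold aligned reads, 1 file per antibody. Per the submitters' processing notes, the authors used Bowtie and the mm9 build. Versions, settings, copy removal and filters: not given in the sources used here. The deposited values are other than counts or signal: each line gives the first and last base, the strand and a further position of 1 read, which lies 1 base upstream of its 5′ end and was used as the crosslink position. Blocks were cut wherever a chromosome name sorted before that of the previous line. Clusters were formed within each block (20 nt), stretches within 1000 nt between outer bases, and neighbours counted within 1000 nt between midpoints. Widths and positions are 1-based. Differences of shares have Newcombe 95% intervals. Two-sided Fisher's exact tests were adjusted over 20 tests (4 measures against 5 sets of clusters), with 0.05 as the threshold. Tests over reads and over stretches covered the strand measure alone and were adjusted over its 5 tests. After reads were collapsed on their ends, clusters left with 1 crosslink position were dropped. A count of 0 was given a limit of 3 counts of the total. On simulated independent clusters, the joining of reads was checked, with the tests of 10 reads or more and plus strand against the other blocks together. Neighbours, stretches and collapses were not simulated. The clusters named were the 10 with most reads, the 3 stretches with most reads or clusters, ties included, and those within 1000 nt of a control read. Others were named after their values were seen. The block and measures were chosen with earlier results of these data known. Transcript regions, the Rbfox motif, gene names and cell type markers were not analysed here, since they need the mm9 build. Python 3.11.15, numpy 2.4.6, pandas 2.3.3, scipy 1.17.1 and matplotlib 3.10.9 were used.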

Additional observations from a re-analysis of the deposited data

How the results depend on the processing

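Of 70 alternative settings, 49 kept the direction and call of a tested difference, or kept an untested share inside its interval or a count within 1.5 times. Such a difference can still move in size: that in clusters of 2 reads against the other blocks, -22.02 points, was -13.5 with joining within 10 nt. The control had 0 reads at block 6 clusters and 2 within 1000 nt. Settings with 1 read per leftmost base, over stretches and without the chromosome 7 neighbourhood were chosen after the data were seen. Collapses on read ends also dropped clusters left with 1 crosslink position. The 10 highest clusters held 30.2% of the reads, but 23.4% by positions, 25.7% without the highest cluster, 27.9% with clusters joined within 10 nt, 34.4% within 50 nt and 27.5% without the chromosome 7 neighbourhood. The share with a cluster of another block nearby was 0.984% within 100 nt. The difference from block 4 in clusters of 10 reads or more, -0.73 points, was 0.053 with joining within 10 nt. The strand results depended most on the setting. Against the other blocks together, the plus share of block 6 was higher by 13.01 points in clusters of at least 5 reads, 4.83 by reads and 9.87 after collapse on both ends, all past the threshold, and lower over stretches (-1.51). The test by reads takes reads of 1 place as independent. Against block 1 the difference in plus share turned to 14.0 points in clusters of at least 5 reads and 10.95 after collapse on both ends. With 1 read per leftmost base it no longer passed against block 1 (-4.19). Against block 3 it no longer passed in clusters of at least 5 reads (-11.2) or after that collapse (-2.71). Against block 4 it no longer passed over stretches (7.39), and against block 9 in clusters of at least 5 reads (14.4), over stretches (6.05), with 1 read per leftmost base (4.89) or without the chromosome 7 neighbourhood (6.08). The cause was not tested, apart from fewer clusters or longer joins, which act by construction. No paired analysis was possible because there was a single library for either antibody. Other settings for the motif and for transcript regions were not run. With 569 control reads, a count of 0 allows a share of up to 0.527%.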
